A study of Mus musculus with 40 samples.

Results

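Txnip and 9 further genes of glucose use were followed through regulatory and conventional CD4+ T cells from 10 sources of the mouse body. The genes were taken by symbol and each matched 1 row, which gave 10 of the 55421 rows of the count table. They are 2 brakes on glucose uptake (Txnip and Arrdc4), 2 glucose transporters (Slc2a1 and Slc2a3) and 6 enzymes of glycolysis (Hk1, Hk2, Gapdh, Pgk1, Pkm and Ldha). All 10 passed the filter on low counts in every comparison below.

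Txnip and Arrdc4 encode alpha-arrestins, adaptor proteins that bring glucose transporters in from the cell surface. Both are switched on by MondoA, a transcription factor that responds to glucose phosphates, so that a cell with ample sugar limits further uptake. TXNIP also binds thioredoxin, the small protein that keeps cysteines reduced. In T cells, activation is known to lower Txnip and to raise the transporter GLUT1 (Slc2a1), hexokinase 2 and lactate dehydrogenase A.

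Each library was made from 2000 CD4+ cells sorted from perfused wild-type mice. Cells positive for a Thy1.1 reporter of Foxp3 are called Treg and negative ones Tconv, so Treg here means reporter-positive. Tissue Treg came from kidney, liver, lung, pancreas and the gut wall, which is represented by intraepithelial (IEL) and lamina propria (LPL) lymphocytes of the small intestine. Peyer's patch was kept apart from both groups, and blood, spleen and lymph node together are called lymphoid. Every source gave 3 Treg libraries and 1 Tconv library, or 30 and 10 in all, with no treatment other than perfusion and tissue digestion named in the labels. Whether any 2 libraries came from the same mouse is not labelled, so SD, SE and p measure the spread between these samples. In sorted bulk RNA, fewer cells that express a gene and less of its RNA per cell cannot be told apart.

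Totals ran from 12197980 to 28823493 counts per library, and the least abundant value among the Treg was 7 counts (Hk2). Foxp3 lay between 68.2 and 309 CPM in the 30 Treg libraries and between 0.162 and 6.74 CPM in the 10 Tconv libraries. The lowest Treg were lymph node replicates 10 and 7 (68.2 and 73.3 CPM). Lymph node replicate 6 had 155 CPM, and blood and spleen Treg had 196 to 280 CPM. CPM, the counts of a gene relative to all counts of its library, are scaled by the library total times its TMM factor. They are not divided by gene length, the libraries holding 3′ ends, and levels are not compared between genes. Marker genes of pancreatic acinar cells (6 of 6 detected) took 1.47%, 1.32% and 6.20% of the counts of the pancreas Treg libraries, against at most 0.00138% in lymphoid Treg. In 7 libraries long genes were low relative to the other libraries: lung Treg replicates 5 and 6, lymph node Treg replicates 7 and 10, liver Treg replicate 4, and the lung and lymph node Tconv. Exons of 5 of the 10 genes overlap another annotated gene, and the use of strand in counting is not given in the sources used here. The overlapping genes held at most 196 counts in any library beside Txnip (Gm15441), 11 beside Slc2a1 (Gm12868), 927 beside Gapdh (Iffo1), 566 beside Pkm (Gm49759) and 60 beside Hk1 (Hk1os). Gapdh, Pgk1 and Ldha have processed pseudogenes that can take or lend reads, which makes their levels less certain.

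Since both brakes are known targets of MondoA, which reads a pair of E-box-like half-sites, their upstream sequences are shown, with that of Hk2 as the enzyme gene that varied most. Promoter windows from RefSeq (GRCm38.p6, 250 bases before to 50 after the start) were matched by symbol for 9 of the 10 genes, all but Slc2a3. The 250 bases before the start are printed 5′ to 3′ on the strand of the gene. Capitals mark, in Txnip, the letters that match CACGNG and, after 5 more bases, CNCGNG, in Arrdc4 the full E-box CACGTG, and in Hk2 the letters CACGT, which read ACGTG on the other strand, the core to which hypoxia-inducible factors are known to bind. The windows are chr3:96557707-96557956 (plus strand), chr7:68749239-68749488 (minus strand) and chr6:82774455-82774704 (minus strand).
Txnip: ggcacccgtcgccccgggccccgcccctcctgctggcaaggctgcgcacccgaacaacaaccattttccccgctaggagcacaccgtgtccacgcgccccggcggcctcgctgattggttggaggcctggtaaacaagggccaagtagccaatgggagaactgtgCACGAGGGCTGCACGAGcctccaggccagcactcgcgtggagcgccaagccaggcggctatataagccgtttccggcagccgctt
Arrdc4: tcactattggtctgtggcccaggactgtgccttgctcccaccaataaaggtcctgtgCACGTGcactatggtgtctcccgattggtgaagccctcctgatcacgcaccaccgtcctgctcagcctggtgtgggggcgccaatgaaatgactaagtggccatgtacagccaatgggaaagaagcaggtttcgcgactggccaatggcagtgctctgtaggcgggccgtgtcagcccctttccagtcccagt
Hk2: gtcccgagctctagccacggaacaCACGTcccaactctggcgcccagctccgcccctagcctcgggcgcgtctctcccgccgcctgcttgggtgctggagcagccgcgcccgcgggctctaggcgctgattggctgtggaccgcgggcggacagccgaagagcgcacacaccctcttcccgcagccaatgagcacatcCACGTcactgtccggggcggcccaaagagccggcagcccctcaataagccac
The paired half-sites of Txnip, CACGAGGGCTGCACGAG, lie at -85 to -69 from the start. Among 32851 mouse promoter windows of the same length, searched on both strands, 120 (0.365%) held such a pair. Arrdc4 had no match to the pair in its window. Its full E-box lay at -193 to -188, and 7.15% of windows held that motif. The enzyme gene Ldha held the full E-box too, at -145 to -140 and at -48 to -43. Hk2 had the ACGTG core at -226 to -222 and at -52 to -48, as 19.6% of windows did at least once. Every full E-box also contains ACGTG. These matches describe letters in a window and show no binding.

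Txnip (ENSMUSG00000038393.14, mm10 chromosome 3, 96557957 to 96561883) was abundant in every library and differed 7.51-fold between the highest and the lowest source mean of Treg. Pancreas Treg had 205, 259 and 355 CPM and LPL Treg 260, 267 and 348 CPM. IEL Treg were next, with 409, 603 and 648 CPM. These 9 libraries lay below every Treg library of blood, liver, lung, lymph node and kidney, with kidney at 860, 900 and 675 CPM. Peyer's patch Treg had 559, 671 and 1053 CPM. Lung Treg had 806, 1238 and 1045 CPM, and liver Treg, the most uniform group, had 1513, 1482 and 1513 CPM. The lymphoid libraries spread most. Blood Treg held 1449, 1923 and 2772 CPM, spleen Treg 1250, 907 and 629 CPM, and lymph node Treg 1439, 666 and 940 CPM. In the order of source means, from blood (2048 ± 671 CPM, SD, n = 3) through liver (1503 ± 18.2), lung (1030 ± 216), lymph node (1015 ± 392), spleen (929 ± 311), kidney (811 ± 120), Peyer's patch (761 ± 259), IEL (553 ± 127) and LPL (292 ± 49.0) to pancreas (273 ± 76.0), neighbours were set apart without overlap at only 2 steps, liver to lung and IEL to LPL. Differences between sources held 88.6% of the variance of log2(CPM + 1) over the 30 Treg libraries.

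Tconv were likewise highest in blood, but their lowest source was LPL and not pancreas. Txnip stood at 2128 CPM in blood Tconv, 1682 in lung, 1419 in liver, 1059 in kidney, 848 in spleen, 842 in lymph node, 679 in pancreas, 619 in Peyer's patch, 562 in IEL and 530 in LPL. In kidney, lung, pancreas and LPL all 3 Treg libraries lay below the Tconv library, in liver all 3 lay above it, and in the other 5 sources the Tconv library fell among the Treg.

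**Figure D1:**
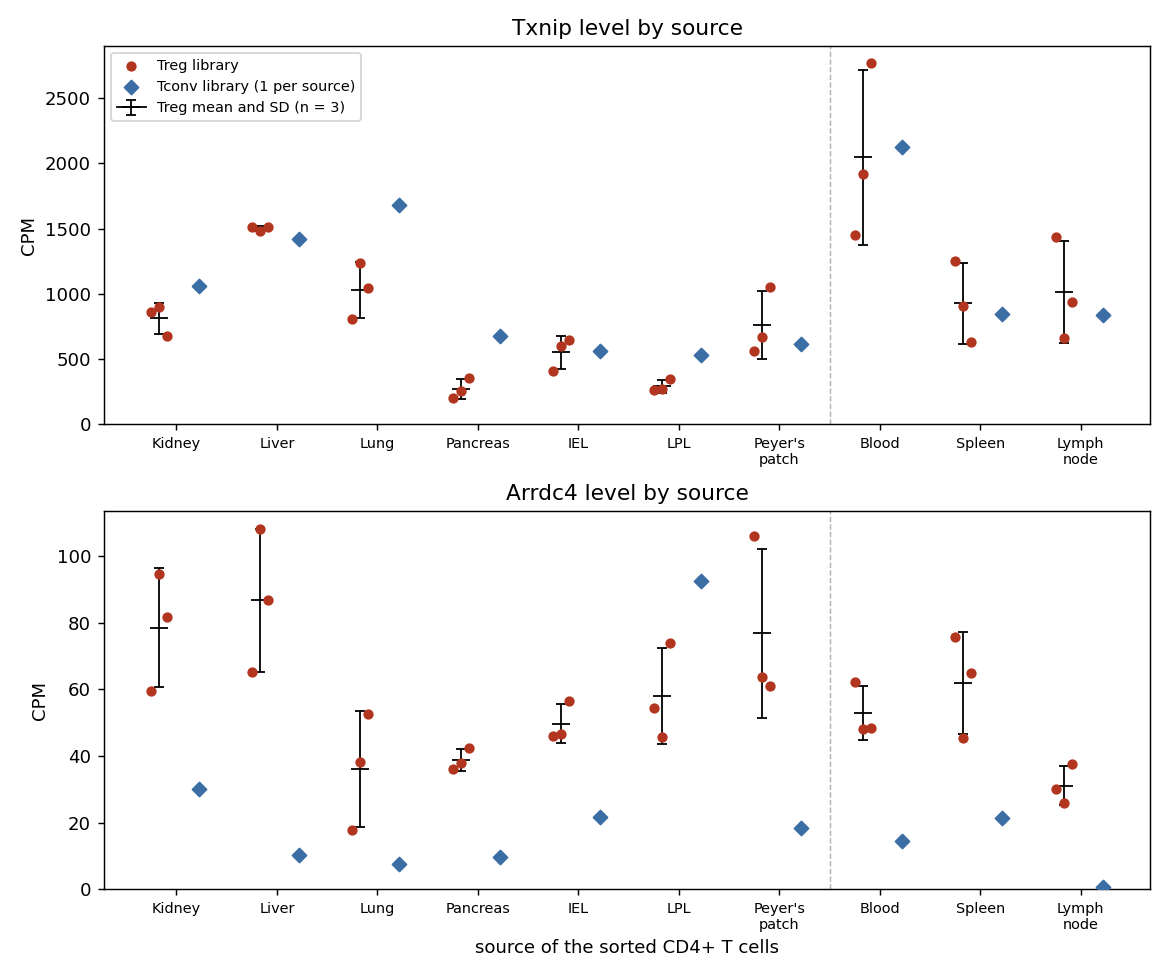
Levels (CPM, linear axes) of Txnip and Arrdc4 in all 40 libraries by source. Red points are Treg libraries with their mean and SD (n = 3), blue diamonds the single Tconv library, and the dashed line sets blood, spleen and lymph node apart. Txnip is lowest in pancreas and LPL Treg, and Arrdc4 is higher in all Treg than in the Tconv of the same source except in LPL.

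Arrdc4 (ENSMUSG00000042659.15, chromosome 7, 68736995 to 68749241), the second brake, had another distribution. Its Treg levels ran from 17.8 CPM in a lung library to 108 CPM in a liver library, and source means differed 2.78-fold. Liver Treg had 65.2, 108 and 86.9 CPM, kidney Treg 59.5, 94.7 and 81.6 CPM and Peyer's patch Treg 106, 63.6 and 61.0 CPM. Pancreas Treg had 36.2, 37.9 and 42.6 CPM, and lymph node Treg, the lowest source, ran from 25.9 to 37.5 CPM. In the order of its source means only IEL and pancreas were neighbours without overlap. Arrdc4 in Tconv was 92.5 CPM in LPL and 30.1 CPM or less in the other 9 sources, with 0.611 CPM (11 counts) in lymph node. All 3 Treg libraries lay above the Tconv library in 9 of 10 sources, and below it in LPL. Over the 10 Treg source means the rank correlation of Txnip with Arrdc4 was 0.08, and it was -0.44 over the 10 Tconv libraries, given as a description over points that share library scaling.

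The comparison of Treg with Tconv, made within sources over 30 and 10 libraries, asks what reporter-positive cells have in common whatever their source. One brake and both transporters were higher in Treg, and Txnip was not called. Of the 10 genes, 5 were higher and 0 lower at an adjusted p below 0.05 in edgeR's quasi-likelihood test with Benjamini-Hochberg adjustment over 14983 genes. Of all genes tested 17.2% were called, 9.88% as higher and 7.28% as lower. The median log2 fold change was 0.36 over the 10 genes and -0.0037 over all genes.

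Arrdc4 ranged from 17.8 through a median of 53.5 to 108 CPM in Treg, against 0.611, 16.4 and 92.5 CPM in Tconv. The ranges overlap, and the log2 fold change was 1.69 ± 0.29 (SE, adjusted p = 6.1e-05, edgeR). Slc2a3, which encodes the high-affinity transporter GLUT3, ranged from 100.1 through 163 to 357 CPM in Treg, against 35.0, 75.0 and 237 CPM in Tconv, with a log2 fold change of 1.08 ± 0.16 (adjusted p = 7.2e-06). Treg were above the Tconv library in 8 of 10 sources for Slc2a3, on both sides of it in kidney and below it in liver. Slc2a1, which encodes GLUT1, ranged from 64.5 through 105 to 241 CPM in Treg and had 55.0, 79.9 and 139 CPM in Tconv. Its log2 fold change was 0.49 ± 0.11 (adjusted p = 0.0021), and all Treg exceeded the Tconv library in 7 of 10 sources. Lymph node Tconv, at 104 CPM, was among the exceptions. These 3 calls held under all 47 alternative settings tried.

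Among the enzymes, Gapdh, the glyceraldehyde phosphate dehydrogenase, had a log2 fold change of 0.32 ± 0.10 (adjusted p = 0.028) and Pkm, the muscle-type pyruvate kinase, one of 0.22 ± 0.07 (adjusted p = 0.031). The Gapdh call was lost without any one of 5 Tconv libraries (blood, lung, Peyer's patch, pancreas and spleen), with log2 fold changes of 0.26 to 0.30 and adjusted p up to 0.0871. That of Pkm was lost without any one of 5 Tconv libraries (IEL, kidney, LPL, liver and Peyer's patch), with 0.19 to 0.21 and adjusted p up to 0.0888. Txnip had a log2 fold change of -0.30 ± 0.15 (adjusted p = 0.17), with 205, 833 and 2772 CPM in Treg against 530, 845 and 2128 CPM in Tconv as lowest, median and highest. Hk1, the constitutive hexokinase, had 0.40 ± 0.17, Hk2, the inducible one, 0.64 ± 0.56, Pgk1, the phosphoglycerate kinase, 0.12 ± 0.10, and Ldha, the lactate-forming dehydrogenase, 0.16 ± 0.10. None of these 4 was called. Without the 7 libraries in which long genes were low, Hk1 (0.37 ± 0.10, adjusted p = 0.0101) and Ldha (0.24 ± 0.07, adjusted p = 0.0196) were called higher and Gapdh was not (adjusted p = 0.0797).

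**Figure D2:**
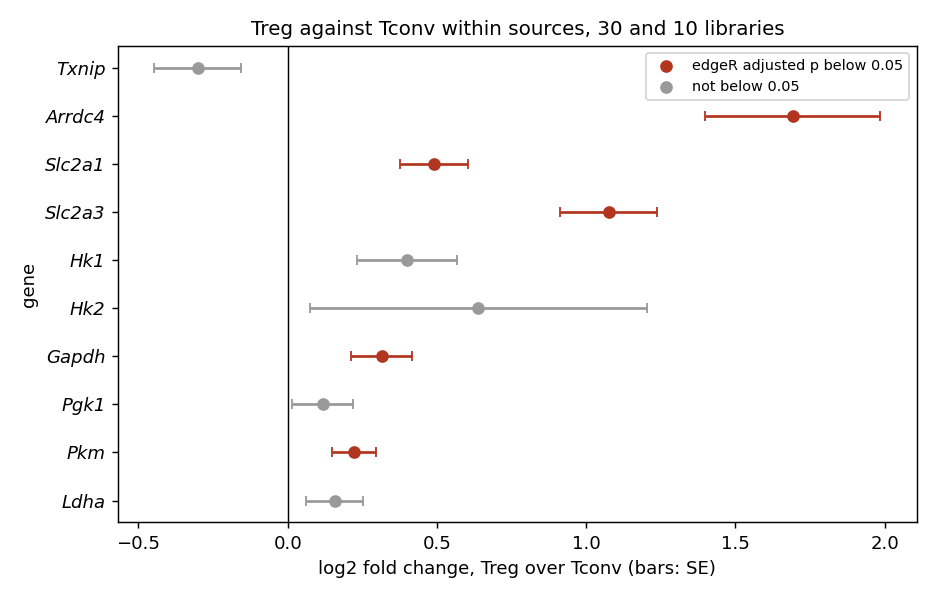
Log2 fold change of each gene, Treg over Tconv within sources, with its SE as bars (30 Treg and 10 Tconv libraries, edgeR). Red points have an adjusted p below 0.05. Arrdc4 (1.69) and Slc2a3 (1.08) lie farthest to the right, and Txnip (-0.30) is the one point left of 0.

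Tissue Treg were then set against lymphoid Treg, 18 libraries of 6 sources against 9 libraries of 3, the contrast that the title of the series points to with its residency program. Txnip was lower in tissue Treg, while both transporters, Hk2, Gapdh and Pkm were higher. Hence 5 of the 10 genes were higher and 1 lower, where 21.8% of 17909 genes tested were called, 11.9% as higher and 9.98% as lower. The median log2 fold change was 0.41 over the 10 genes and 0.03 over all genes.

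Txnip ranged from 205 through a median of 661 to 1513 CPM in tissue Treg, against 629, 1250 and 2772 CPM in lymphoid Treg. The groups overlap, and the log2 fold change was -1.01 ± 0.14 (adjusted p = 2e-05, edgeR). The call depended on the choice of lymphoid source. With spleen alone as the reference the log2 fold change was -0.58 ± 0.22 (adjusted p = 0.0977), and Slc2a3 (0.51 ± 0.19) and Hk2 (1.56 ± 0.74) were not called either, while Ldha was called higher (0.64 ± 0.17, adjusted p = 0.0216). With blood alone, Slc2a1 was not called (0.60 ± 0.21, adjusted p = 0.0701). With lymph node alone, Txnip stayed lower and Arrdc4 was called higher (0.82 ± 0.24, adjusted p = 0.0234), while none of the 5 higher genes given below was called.

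Slc2a1 ranged from 86.2 through 114 to 241 CPM in tissue Treg and had 64.5, 86.8 and 147 CPM in lymphoid Treg, with a log2 fold change of 0.61 ± 0.14 (adjusted p = 0.0021). Slc2a3 had 102, 227 and 357 CPM against 100.1, 142 and 185 CPM, and 0.56 ± 0.12 (adjusted p = 0.0019). Both pairs of ranges overlap. Hk2, which traps glucose in the cell as glucose phosphate, was low throughout, with 0.595, 9.30 and 25.6 CPM in tissue Treg against 0.342, 2.45 and 4.63 CPM in lymphoid Treg, and its log2 fold change was 2.05 ± 0.48 (adjusted p = 0.0029). Gapdh had 394, 534 and 860 CPM against 283, 358 and 450 CPM and a log2 fold change of 0.64 ± 0.11 (adjusted p = 0.00027). For Pkm the values were 725, 952 and 1215 CPM against 589, 725 and 800 CPM, and 0.44 ± 0.08 (adjusted p = 0.00034). Arrdc4 (0.24 ± 0.15), Hk1 (0.39 ± 0.21), Pgk1 (0.20 ± 0.12) and Ldha (0.15 ± 0.11) were not called.

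With the counts summed per source, 6 sources against 3, 0 of the 10 genes and 0 of all genes were called by edgeR at an adjusted p below 0.05, with 5 of the 10 and 2753 of all 18000 genes at an unadjusted p below 0.05. Txnip then had -0.86 ± 0.53 (adjusted p = 0.479). Early response genes, which dissociation and stimulation are known to induce, were also higher in tissue Treg. In the edgeR fit of the 30 Treg libraries 20 of 23 were called higher, against 11.9% of all genes. Their median log2 fold change was 1.90. Their part in the result was not tested. The acinar markers named above lay in the pancreas libraries alone at such shares. Without pancreas Treg as a source 6 of the 10 genes and 3715 of all genes were called, against 6 and 3910 with it. The part of acinar RNA in the pancreas values was not tested.

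Set one by one against the 9 lymphoid Treg libraries, which all of these comparisons share, the called genes differed by source. Pancreas Treg had Txnip lower by a log2 fold change of -2.19 ± 0.28 (adjusted p = 9.7e-06), with Hk2 (2.14 ± 0.64), Gapdh (0.74 ± 0.17) and Pkm (0.44 ± 0.13) higher and neither transporter called (0.17 and 0.13), where 9.95% of all genes were called, 7.64% higher and 2.31% lower. LPL Treg had Txnip lower by -2.09 ± 0.28 (adjusted p = 4.6e-06), and Slc2a1 (1.29 ± 0.20), Slc2a3 (1.09 ± 0.19), Hk2 (3.41 ± 0.63), Gapdh (0.60 ± 0.18) and Pkm (0.41 ± 0.13) higher, where 27.1% were called, 17.4% higher and 9.69% lower. IEL Treg had Txnip at -1.16 ± 0.26 (adjusted p = 0.0023), Slc2a3 at 0.91 ± 0.19 and Hk2 at 1.85 ± 0.65, and 21.2% of genes were called, 13.5% higher and 7.77% lower. Beside low Txnip, both transporters were called in LPL, Slc2a3 in IEL and neither in pancreas; these single sources were not tested against each other. Several of these calls rested on few libraries or on the settings. In pancreas, Hk2 was lost without any one of 9 libraries (1.93 to 2.34, adjusted p up to 0.122), Gapdh without replicate 6 (0.58, adjusted p = 0.0731) and Pkm without replicate 1 or 5 (0.36 and 0.44, adjusted p up to 0.168). Under the replicate block Hk2, Gapdh and Pkm were lost too (adjusted p = 0.124, 0.0907 and 0.177), as was Pkm with the gene length offset (0.30, adjusted p = 0.16). In LPL, Gapdh was lost without replicate 1 (0.58, adjusted p = 0.0531) and Pkm without any one of the 3 LPL libraries (0.37 to 0.40, adjusted p up to 0.0872). Both were also lost with the gene length offset, Gapdh at 0.42 (adjusted p = 0.107) and Pkm at 0.18 (adjusted p = 0.372). The replicate block ended both calls as well (0.71, adjusted p = 0.0535, and 0.34, adjusted p = 0.17). In IEL, Txnip was lost under the replicate block (-0.86 ± 0.27, adjusted p = 0.0524), and Hk2 was lost without any one of 23 libraries (1.64 to 2.09, adjusted p up to 0.164).

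Kidney Treg had 6 of the 10 genes higher and 0 lower, where 16.4% of genes were called, 12.2% higher and 4.25% lower. They were Slc2a1 (1.05 ± 0.21), Gapdh (1.08 ± 0.17), Hk2 (2.53 ± 0.64), Pkm (0.68 ± 0.12), Arrdc4 (0.75 ± 0.23) and Slc2a3 (0.56 ± 0.19), while Txnip was not called (-0.62 ± 0.25, adjusted p = 0.0975). Kidney Treg replicate 1 was the lowest kidney Treg library for these 2 genes, with 111, 212 and 223 CPM of Slc2a1 and 1.57, 18.8 and 14.7 CPM of Hk2 in replicates 1, 3 and 5. Kidney tubule markers made up 0.147% of its counts, the highest share of any tissue Treg library. Only the calls of Slc2a1, Gapdh and Pkm held in all 36 alternative settings. Slc2a3 kept its call in 14 of them, with values of 0.43 to 0.75, and lost it without any one of 20 libraries (adjusted p up to 0.271). Arrdc4 kept its call in 30 and lost it without any one of 5 libraries (0.58 to 0.72, adjusted p up to 0.211). Without kidney replicate 3 the call of Hk2 was lost (2.0, adjusted p = 0.0868).

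In the other 3 sources 1 or 2 of the 10 genes were called. Liver Treg had Pkm alone called (0.61 ± 0.12, adjusted p = 0.012), where 1.12% of genes were called and 0.955% as higher, with Arrdc4 just outside the threshold (0.90 ± 0.23, adjusted p = 0.0574) and Txnip at 0.28 ± 0.24. The Pkm call was lost without liver replicate 1 (adjusted p = 0.0535) or 4 (adjusted p = 0.124). Lung Treg had Gapdh (0.65 ± 0.18) and Ldha (0.56 ± 0.17) higher, where 11.5% of genes were called, 8.64% higher and 2.85% lower. Gapdh was lost without lung replicate 1 (0.50, adjusted p = 0.0852) and Ldha without lung replicate 5 or 6 or blood replicate 2 or 4 (0.42 to 0.53, adjusted p up to 0.191). Lung replicates 5 and 6 are among the libraries with low long genes. Without those libraries, which leaves 1 lung Treg library, Ldha was at 0.41, with the spread taken from the other groups. Peyer's patch Treg had Gapdh (0.84 ± 0.17) and Pkm (0.64 ± 0.12) higher, where 3.57% were called and 2.94% as higher, and both rested on replicate 1. That library had 945 and 1469 CPM of them, and without it the log2 fold changes were 0.48 and 0.41 (adjusted p = 0.168 and 0.10).

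**Figure D3:**
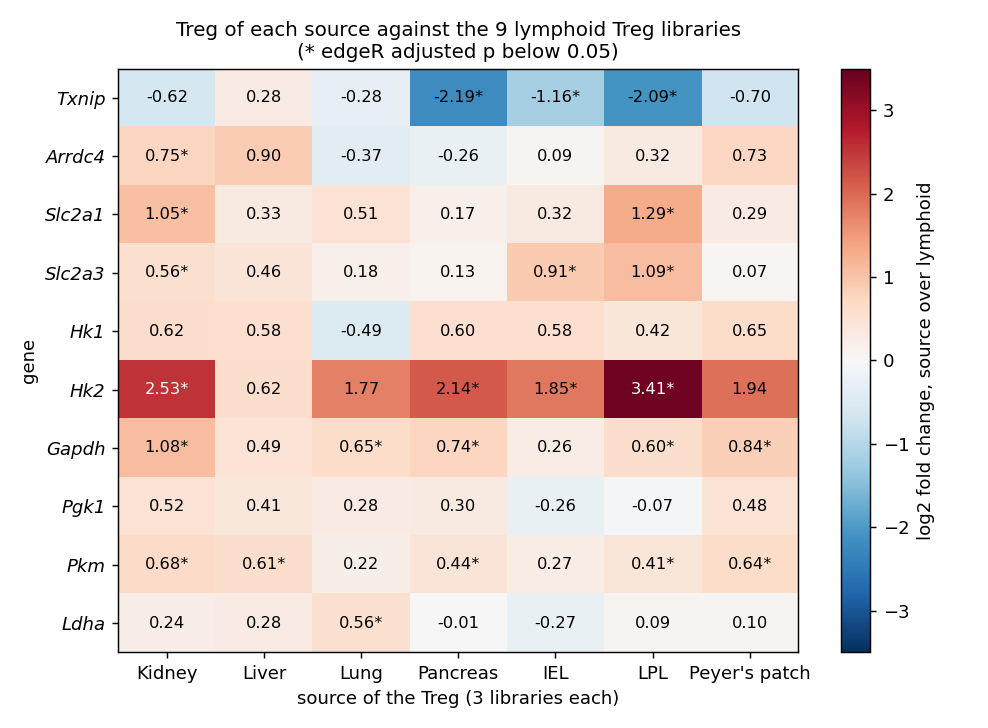
Log2 fold change of each gene in Treg of each of 7 sources over the 9 lymphoid Treg libraries, as colour and number, with * for an adjusted p below 0.05 in edgeR. The Txnip row is negative in 6 sources and called in pancreas (-2.19), LPL (-2.09) and IEL (-1.16), and the Hk2 row is positive in all 7.

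The levels behind these folds show how far single libraries carry them. Slc2a1 had 203, 202 and 241 CPM in LPL Treg, above every Treg library of the other sources except 2 of kidney, and its source means differed 2.91-fold. Slc2a3 was highest in the gut wall, with 272, 285 and 266 CPM in IEL Treg and 241, 331 and 357 CPM in LPL Treg, against 100.1 to 185 CPM in lymphoid Treg. The lowest gut wall library exceeded the highest lymphoid one. Pancreas Treg had 157, 218 and 102 CPM of Slc2a3, from near the lowest lymphoid library to above the highest.

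Hk2 had 20.4, 25.6 and 18.8 CPM in LPL Treg and 9.63, 0.595 and 10.8 CPM in lung Treg, where replicate 5 stood apart. Lymph node Treg had 0.698, 4.63 and 0.342 CPM in replicates 10, 6 and 7, and blood Treg had 0.877, 3.27 and 0.472 CPM. Its source means differed 14.0-fold, from LPL (21.6 ± 3.58 CPM) to blood (1.54 ± 1.51 CPM). No neighbours in that order were clearly apart. The lowest LPL library (18.789 CPM) and the highest kidney library (18.787 CPM) were practically equal. Every library of LPL, pancreas and Peyer's patch Treg lay above the highest lymphoid library (4.63 CPM), and pancreas Treg had 6.09, 9.24 and 11.6 CPM.

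**Figure D4:**
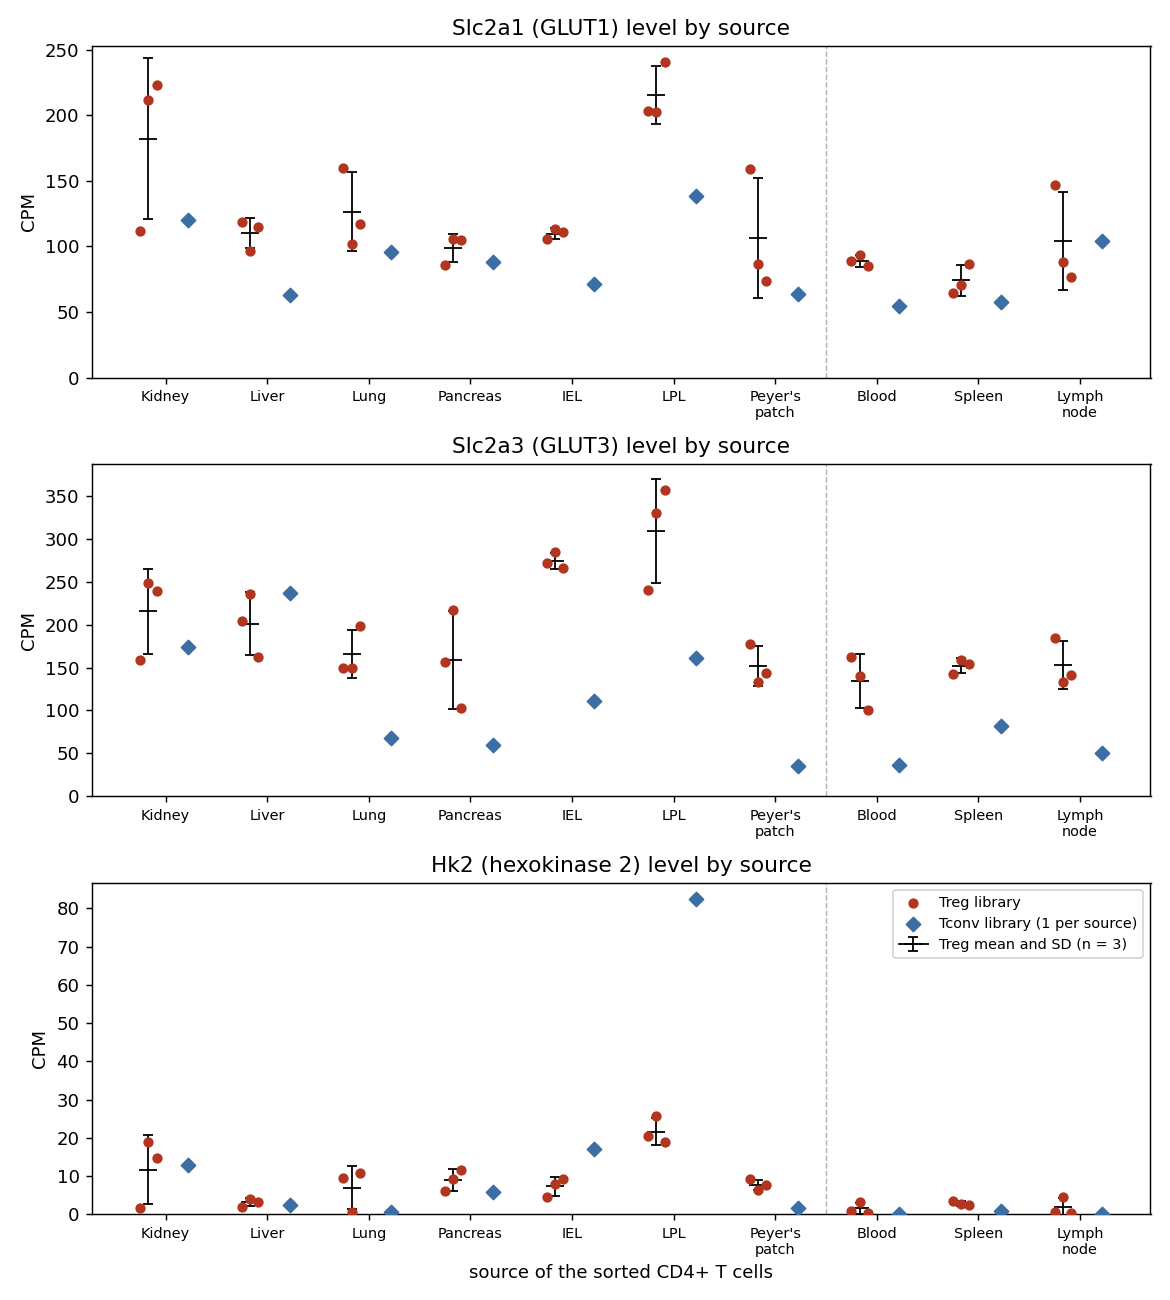
Levels (CPM, linear axes from 0) of Slc2a1, Slc2a3 and Hk2 in all 40 libraries by source, with Treg as red points (mean and SD, n = 3) left of the single Tconv library as a blue diamond. LPL Treg lead for all 3 genes among Treg source means, and the LPL Tconv library has 82.5 CPM of Hk2.

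After Hk2, Hk1 was spread most within sources (SD 0.54 of log2(CPM + 1), against 0.88 for Hk2). Lymph node Treg had 78.2, 398 and 86.7 CPM in replicates 10, 6 and 7, and lung Treg 265, 184 and 91.9 CPM in replicates 1, 5 and 6. The low ones are libraries in which long genes were low, and Hk1 has a long set of exons (8532 bases). Slc2a3, with 7245 bases, had 133 to 185 CPM in lymph node Treg. The part of gene length in these levels was not tested. Ldha and Pgk1 took the direction opposite to Hk1 in lymph node. They had 2146, 978 and 1789 CPM of Ldha and 97.5, 47.3 and 91.0 CPM of Pgk1 in replicates 10, 6 and 7. Without the 7 libraries with low long genes, Ldha (0.31 ± 0.09, adjusted p = 0.0185) and Pgk1 (0.32 ± 0.11, adjusted p = 0.0490) were called higher in tissue Treg than in lymphoid Treg. Pkm varied little within sources (SD 0.17 of log2(CPM + 1)), with source means from 1137 ± 90.7 CPM in kidney to 635 ± 44.0 CPM in spleen, a 1.79-fold difference.

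Within the tissue Treg, gut wall libraries (IEL and LPL) were compared with those of the solid organs (kidney, liver, lung and pancreas), which places the intestinal Treg among the tissues. Slc2a3 was higher and Txnip, Pgk1 and Ldha were lower, 4 of 10 genes where 23.6% of all genes were called, 13% higher and 10.6% lower. Txnip ranged from 260 through 379 to 648 CPM in the 6 gut wall libraries, against 205, 880 and 1513 CPM in the 12 solid organ libraries, with a log2 fold change of -0.92 ± 0.19 (adjusted p = 0.00091, edgeR). Pancreas libraries account for the low end of the solid organs, and the other solid organ libraries, from 675 CPM up, lay above all gut wall ones. Slc2a3 had 241, 278 and 357 CPM against 102, 180 and 249 CPM and a log2 fold change of 0.67 ± 0.14 (adjusted p = 0.0014). Pgk1 had 46.3, 52.3 and 57.2 CPM in the gut wall against 48.9, 75.6 and 95.1 CPM, and -0.54 ± 0.15 (adjusted p = 0.0094). The Ldha difference, -0.36 ± 0.13 (adjusted p = 0.046), kept its call in 17 of 36 settings and lost it without any one of 16 libraries (-0.37 to -0.34, adjusted p up to 0.0966). In the gut wall Treg long genes were high relative to the other libraries, with rank correlations to gene length of 0.11 to 0.24. Solid organ Treg ran from -0.26 (lung replicate 6) to 0.17 (pancreas replicate 1). With the gene length offset the 4 calls stayed. The spread in all these fits is that between libraries of a source, and no fit with the spread between sources was run here. Gapdh (-0.47 ± 0.15, adjusted p = 0.0212) and Pkm (-0.33 ± 0.11, adjusted p = 0.0219) were then called lower as well. Intestinal epithelial markers made up 0.00556% to 0.0823% of counts in the gut wall Treg, against 0.000811% to 0.00539% in the solid organ Treg, and their part in these differences was not tested.

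Few of the 10 genes were called between lymphoid sources in the main fit. Lymph node against spleen Treg had Ldha alone called, at 0.96 ± 0.21 (adjusted p = 0.023), where 2.04% of genes were called, and the call was lost without lymph node replicate 10 (0.74, adjusted p = 0.229) or 7 (0.90, adjusted p = 0.163) or any spleen replicate (0.92 to 1.01, adjusted p up to 0.0977). Without the libraries with low long genes, which leaves 1 lymph node Treg library, it was 0.24, with the spread taken from the other groups. Blood against spleen Treg had 0 of the 10 genes called in edgeR, where 1.52% of genes were called. There 2 of the 10 and 2265 of 17909 genes had an unadjusted p below 0.05, and DESeq2 called 1 of the 10 and 773 of all genes. Txnip had 1449, 1923 and 2772 CPM in blood against 1250, 907 and 629 CPM in spleen, without overlap, and a log2 fold change of 1.15 ± 0.30 just outside the threshold (adjusted p = 0.051). Without the libraries with low long genes it was called, at 1.16 ± 0.28 (adjusted p = 0.0231). The same held with the gene length offset (1.18 ± 0.31, adjusted p = 0.0467), under the replicate block (1.15 ± 0.28, adjusted p = 0.0480) and in DESeq2 (1.11 ± 0.31, adjusted p = 0.0118). With DESeq2 size factors or no filter Txnip was not called. Of the 30 fits with 1 library left out, 8 called it (adjusted p from 0.0321 to 0.36 over all 30).

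For Tconv only 1 library per source was at hand, so 6 tissue sources were set against 3 lymphoid ones. In edgeR 0 of the 10 genes and 0 of 14453 genes were called, with 3 of the 10 and 2120 of all genes at an unadjusted p below 0.05. DESeq2 called 2 of the 10 and 1085 of all genes. Txnip had 530 to 1682 CPM in tissue Tconv and 842, 848 and 2128 CPM in lymphoid Tconv, a log2 fold change of -0.38 ± 0.45. Gapdh had 379 to 758 CPM against 195, 236 and 353 CPM, without overlap, and 0.92 ± 0.29 (adjusted p = 0.19). Slc2a3 had 59.2 to 237 CPM against 36.3, 50.4 and 81.7 CPM, and 1.25 ± 0.46 (adjusted p = 0.26).

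Hk2 in Tconv spread widely. It was 82.5 CPM in LPL, 17.1 in IEL, 12.9 in kidney, 5.79 in pancreas, 2.53 in liver, 1.71 in Peyer's patch, 0.828 in spleen and 0.685 in lung Tconv. Blood and lymph node Tconv had 0 counts, which allow up to 0.126 and 0.167 CPM (3 counts, counting error only). The high LPL value exceeds that of LPL Treg, and the same library had the highest Arrdc4 of all Tconv.

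Whether the tissue difference is the same in both cell types was tested as a difference of differences over all 40 libraries. Of the 10 genes 2 were called, Hk2 at -5.89 ± 1.46 (adjusted p = 0.049) and Arrdc4 at -1.47 ± 0.34 (adjusted p = 0.026), both with a smaller tissue difference in Treg than in Tconv, where 0.884% of 22976 genes were called. The spread in this test comes from the Treg replicates alone, and each lone Tconv library is assumed to vary like them. With counts summed per source and cell type, an alternative chosen after seeing the data in which the spread is that between sources, edgeR called 0 of the 10 and 0 of 18142 genes, with 2 of the 10 and 1214 of all genes at an unadjusted p below 0.05. Hk2 then had -3.97 ± 1.39 (adjusted p = 0.596) and Arrdc4 -1.13 ± 0.97 (adjusted p = 0.89). Under the replicate block neither was called (-4.73 ± 1.45, adjusted p = 0.171, for Hk2 and -1.40 ± 0.37, adjusted p = 0.0949, for Arrdc4). The Hk2 value depends on the counts of 0, 0 and 16 in the lymphoid Tconv, is a fitted value and no bound, and kept its call in 18 of 47 settings. It was lost without any one of 26 libraries (-5.99 to -4.69, adjusted p up to 0.358). Without the lymph node Tconv library, the Arrdc4 difference was 0.17 (adjusted p = 1). It was also lost without LPL Tconv (-1.02, adjusted p = 0.225) or kidney Tconv (-1.33, adjusted p = 0.0627). The difference for Txnip was -0.64 ± 0.30 (adjusted p = 0.56) and was not called.

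The brakes were also set against the transporters and enzymes within each library, as log2(CPM + 1) of Txnip minus the mean of the other 8 genes without Arrdc4. This is a description, since the genes were chosen with results known, and only its differences between groups have meaning. The value was 0.18 in LPL Treg and 0.41 in pancreas Treg on average, against 3.83 in blood Treg. IEL (1.52), kidney (1.72) and Peyer's patch (1.82) lay between these and lung (2.49), lymph node (2.74), spleen (2.75) and liver (2.96). Libraries of LPL Treg (0.045 to 0.43) and of pancreas Treg (0.092 to 0.88) overlapped each other and no other Treg group. In Tconv the lowest value was that of LPL (1.26) and the highest that of blood (4.72). LPL and pancreas reached nearly the same value from different levels. The mean of the 8 genes was 8.0 in LPL Treg and 7.64 in pancreas Treg, against 7.12 in blood Treg. Each gene weighs alike in this mean, also the sparse Hk2 (21.6, 8.97 and 1.54 CPM in these 3 groups).

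**Figure D5:**
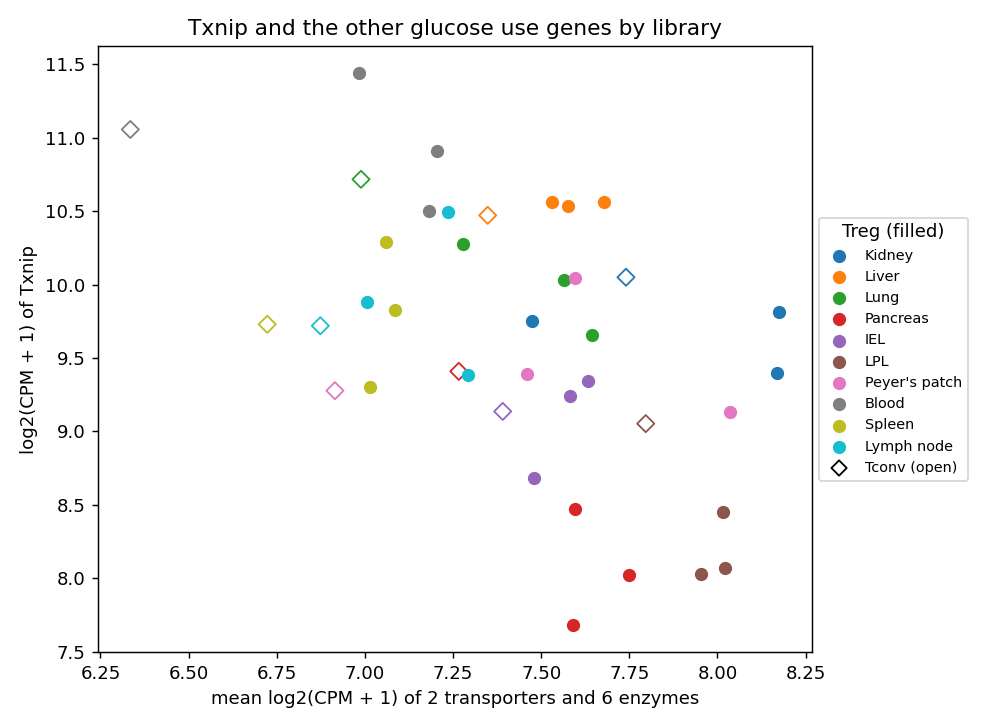
Txnip against the mean of 2 transporters and 6 enzymes, both as log2(CPM + 1), in each library (filled circles Treg, open diamonds Tconv, colour for source). LPL and pancreas Treg lie lowest for Txnip, liver Treg keep high Txnip at a middle level of the other genes, and kidney Treg replicates 3 and 5 lie farthest right.

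Over the 10 Treg source means, Txnip ranked opposite to Hk2 (Spearman rho -0.84) and less so to Slc2a3 and Gapdh (-0.44 each) and Slc2a1 (-0.26). With Ldha (0.44) and Pgk1 (0.04) rho was positive. Gapdh and Pkm ranked together (0.83), as did the transporters Slc2a1 and Slc2a3 (0.79). Within sources, after the source mean was taken off, rho of Txnip over the 30 libraries was -0.12 with Hk2, -0.11 with Slc2a3, -0.32 with Pkm and 0.32 with Ldha. The opposite order of Txnip and Hk2 was seen over source means and was weak among libraries of a source. All these points share the library total as divisor.

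The genes most like Txnip were taken as the 5 highest and the 5 lowest Spearman correlations over the 30 Treg libraries. The 8559 other genes with a mean of at least 10 CPM in Treg were compared. Those without a symbol, with Gm or Rik names, or of immunoglobulin and T cell receptor segments were left out of the ranking. They were Klhl6 (0.86), Cd47 (0.85), Ms4a4b (0.84), Retreg3 (0.84) and Ms4a6b (0.83). Cd47 encodes the surface signal that restrains phagocytes. Most opposite were Zfp36l1 (-0.86), which encodes an RNA-binding protein that promotes mRNA decay, Tox2 (-0.85), a nuclear factor of the TOX family, Rgs9 (-0.84), Chn2 (-0.84) and Grik5 (-0.83). Within sources the likeness was weaker, from -0.02 (Cd47) to 0.37 (Klhl6) for the first 5 and from -0.12 (Tox2) to -0.51 (Grik5) for the others. Tox2 averaged 202 ± 161 CPM in tissue Treg (SD, n = 18) and 40.9 ± 28.0 CPM in lymphoid Treg (SD, n = 9), and Ms4a4b 708 ± 534 and 1331 ± 221 CPM.

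Other genes of the pathway were read from lists, whose medians are to be set beside the median of all genes, 0.03 for tissue against lymphoid Treg and -0.0037 for Treg against Tconv. Among other enzymes of glycolysis and its control, 5 genes of the 22 with enough counts rose in tissue Treg over lymphoid Treg and 1 fell, with a median log2 fold change of 0.35. For this and the lists that follow, 11.9% of all genes were called as higher and 9.98% as lower in tissue Treg. Triose phosphate isomerase (Tpi1, 0.86 ± 0.15), the platelet-type phosphofructokinase (Pfkp, 0.58 ± 0.08) and glucose phosphate isomerase (Gpi1, 0.40 ± 0.08) were higher, and the muscle enolase Eno3 was lower (-1.06 ± 0.23). Against Tconv, 8 of 21 were higher in Treg and 0 lower (median 0.12), where 9.88% of all genes were higher and 7.28% lower, among them Aldoc (1.72 ± 0.30), Ldhb (0.98 ± 0.15), Tpi1 (0.71 ± 0.14) and Gpi1 (0.35 ± 0.07).

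Of 13 other sugar and lactate transporters, 4 were higher and 0 lower in tissue Treg (median 1.06), against 11.9% and 9.98% of all genes. Slc16a3, which encodes the lactate exporter MCT4, averaged 66.3 ± 50.9 CPM in tissue Treg and 18.7 ± 11.5 CPM in lymphoid Treg, a log2 fold change of 1.87 ± 0.32 (adjusted p = 0.00018). It was also the one transporter of this list called in Treg against Tconv, at 51.3 ± 45.5 CPM in Treg and 11.7 ± 8.24 CPM in Tconv (2.14 ± 0.28, adjusted p = 5.7e-07). Slc2a8 (1.06 ± 0.19), Slc16a1 (0.63 ± 0.16) and Slc2a6 (1.71 ± 0.62) were the others in tissue.

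Klf10 and Arrdc3, 2 further genes known to respond to MondoA, went the opposite way to Txnip. Klf10 averaged 121 ± 63.0 CPM in tissue Treg and 50.9 ± 19.1 CPM in lymphoid Treg, a log2 fold change of 1.21 ± 0.16 (adjusted p = 1.1e-05, edgeR). Arrdc3, another alpha-arrestin, averaged 100.5 ± 59.3 and 42.6 ± 14.3 CPM, a log2 fold change of 1.17 ± 0.24 (adjusted p = 0.0012). Arrdc1 (-0.17 ± 0.12) and Arrdc2 (0.25 ± 0.30) were not called.

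Of 23 regulators of glucose use, 5 were higher and 1 lower in tissue Treg (median 0.21), against 11.9% and 9.98% of all genes. The hypoxia-inducible factors Epas1 (3.79 ± 0.48) and Hif1a (1.05 ± 0.16) and the T cell factor Irf4 (1.03 ± 0.20) were among the higher ones, and Myc, which drives glycolytic genes in dividing T cells, was lower (-0.66 ± 0.11, adjusted p = 0.00012). Hif1a averaged 785 ± 329 CPM in tissue Treg and 367 ± 81.5 CPM in lymphoid Treg, and Myc 181 ± 65.3 and 276 ± 57.8 CPM. Against Tconv, Myc (0.77 ± 0.12), Hif1a (0.90 ± 0.14) and Irf4 (0.95 ± 0.30) were higher in Treg and Rictor lower (-0.44 ± 0.07), with 4 of 19 higher and 1 lower (median -0.03), against 9.88% and 7.28% of all genes.

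Of 17 hypoxia-inducible genes, 3 were higher and 2 lower in tissue Treg (median 0.22), near the shares of all genes (11.9% and 9.98%), with the oxygen sensor Egln3 (1.99 ± 0.24) and Ndrg1 (1.26 ± 0.21) up and Fam162a (-0.71 ± 0.12) and Ddit4 (-1.03 ± 0.21), an inhibitor of mTORC1 signalling, down. The list thus did not move in 1 direction.

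In the thioredoxin system, on whose central protein TXNIP acts, 4 of 13 genes were higher and 2 lower in tissue Treg (median -0.03), against 11.9% and 9.98% of all genes. The sulfiredoxin Srxn1 (2.71 ± 0.28), the glutaredoxin Glrx (1.37 ± 0.21) and the thioredoxin reductase Txnrd1 (0.54 ± 0.12) were higher, and Txnrd3 lower (-1.11 ± 0.23). Glrx averaged 208 ± 97.2 CPM in tissue Treg and 78.9 ± 28.4 CPM in lymphoid Treg. It was also higher in Treg than in Tconv (1.48 ± 0.17), as were Srxn1 (1.06 ± 0.28) and Prdx4 (0.61 ± 0.18), with 3 of 13 higher and 0 lower, against 9.88% and 7.28% of all genes.

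Of 13 genes of pyruvate entry to mitochondria, 0 were higher and 1 lower in tissue Treg (median 0.05), the pyruvate dehydrogenase kinase Pdk1 (-0.70 ± 0.14), which was also lower in Treg than in Tconv (-0.81 ± 0.16). In the pentose phosphate pathway 2 of 10 genes were higher, Tkt (0.32 ± 0.09) and G6pdx (0.35 ± 0.12), and 2 lower, Rpia (-1.10 ± 0.22) and Prps2 (-0.35 ± 0.11), with a median of 0.08. The counts of both lists are close to what 11.9% and 9.98% of all genes give.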

How the data were processed

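Per the labels' protocols, QuantSeq libraries of mRNA 3′ ends were sequenced from sorted cells. The authors deposited raw gene counts. FastQC, MultiQC, Trim Galore, STAR, featureCounts, DESeq2 and DESeq and the build mm10 are named in the submitters' processing notes, without versions, and the annotation release is not given in the sources used here. Of the gene identifiers, 267 could not be given a symbol. Counts were tested with edgeR 4.0.16 in R 4.3.3 (filterByExpr, TMM, trended dispersion, robust quasi-likelihood F test, Benjamini-Hochberg adjustment over all genes tested, threshold 0.05). Treg against Tconv used 40 libraries with the source as a term, all Treg comparisons came from a single model of 30 libraries, and the difference of differences a mean per source and cell type, so that its spread comes from the Treg replicates. The SE is the fold change divided by the root of F. Levels are CPM with the TMM factors of the 40 libraries. All 10 genes are named in the main comparisons, and from a list up to 4 genes with the smallest p. Genes and lists were chosen with earlier results of these data known. Alternatives were DESeq2 1.42.0 and its size factors, no filter, a gene length offset, counts summed per source or per source and cell type, a replicate block, single lymphoid sources as the reference, and each library or source left out. The scripts' test was checked on simulated counts. Replicates of a group differed by 20.1 to 363 times counting variance (chi-square per degree of freedom), so no library was counted as a duplicate. Figures were drawn with matplotlib 3.10.9.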

Additional observations from a re-analysis of the deposited data

Results flagged for a closer look

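The tissue difference of Hk2 and Arrdc4 was called as unequal in Treg and Tconv in a test of that difference whose spread comes from the Treg replicates alone, with 1 Tconv library per source. For Hk2 the difference of differences was -5.89 ± 1.46 on the log2 scale (adjusted p = 0.0486, edgeR), and for Arrdc4 -1.47 ± 0.34 (adjusted p = 0.0263). With the spread between sources in its place, neither was called (Hk2 -3.97 ± 1.39, adjusted p = 0.596, and Arrdc4 -1.13 ± 0.97, adjusted p = 0.89), nor under the replicate block. Single libraries left out ended the Hk2 call in 26 cases and that of Arrdc4 in 3. Hk2 was at 0 counts in blood and lymph node Tconv, and Arrdc4 at 0.611 CPM in lymph node Tconv. Groups held 3 libraries or 1, too few to test a single library against its own group.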

How the results depend on the processing

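Across the alternatives that leave out no single library, 827 of the values per gene and comparison stayed on their side of the threshold, 59 lost a call, 33 gained one and 1 called value changed sign. With libraries left out singly these numbers were 4023, 133, 33 and 1. Among values called in neither fit, 44 and 53 changed sign. The called values that did were Ldha in lymph node against spleen Treg under the replicate block (-0.17), and Arrdc4 in the difference of differences without lymph node Tconv replicate 8 (0.17), which with single libraries left out ranged from -2.43 to 0.17. The cause was not tested. The calls held under every alternative run for them for Slc2a1, Slc2a3 and Arrdc4 in Treg against Tconv, Txnip and Slc2a3 in gut wall against solid organs, Slc2a1, Gapdh and Pkm in kidney, Txnip in pancreas, Slc2a3 in IEL, and Txnip, Slc2a1, Hk2 and Slc2a3 in LPL. Counts summed per source were run only for tissue against lymphoid Treg, and per source and cell type only for the difference of differences. For gut wall against solid organs the spread between sources was therefore not used.

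The number of the 10 genes called changed by more than 1.5 times as follows. Under the replicate block it was 3 for Treg against Tconv (5 without), 2 for gut wall against solid organs (4), 0 for liver (1), 1 for pancreas (4), 1 for IEL (3), 0 for Peyer's patch (2), 0 for lymph node against spleen (1), 1 for blood against spleen (0) and 0 for the difference of differences (2). Of all genes, the block called 2279 for Treg against Tconv (2571 without), 2174 for gut wall against solid organs (4219) and 8 for liver (200). It called 476 for pancreas (1782), 1513 for IEL (3803), 140 for Peyer's patch (639) and 0 for lymph node against spleen (365). For blood against spleen it called 254 (272), and for the difference of differences 195 (203). Libraries with the same number did not deviate together (58 pairs, median correlation -0.0124, 6 of them over 0.1), so the numbers are not taken as pairs. Numbers seen once share a level of the block, which leaves replicate 6 alone to place lymph node Treg. With the length offset it was 3 for Treg against Tconv (2648 of all genes) and 1 for blood against spleen (297). DESeq2 called 2 in liver (519 of all genes), 2 in lymph node against spleen (1151), 1 in blood against spleen (773) and 2 in Tconv (1085). Without the filter 2 were called in liver (222 of all genes) and 1 in the difference of differences (188). With lymph node alone as the reference of tissue Treg 2 were called (2896 of all genes), and with counts summed per source 0 (0 of all genes). With counts summed per source and cell type, added after seeing the data, the difference of differences had 0 (0 of all genes). Removing the 7 libraries with low long genes was an alternative chosen after seeing the data, as was the removal of pancreas. Without those 7 it was 0 for liver (65 of all genes), 4 for Peyer's patch (639) and 2 for blood against spleen (774). For the difference of differences it was 1 (384). Lymph node against spleen is left with 1 lymph node Treg library, so no count is given for it.

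With each library left out in turn, the number called lay between 3 and 6 for Treg against Tconv, 6 and 7 for tissue against lymphoid Treg, 3 and 5 for gut wall against solid organs, 3 and 7 for kidney, 0 and 2 for liver, 1 and 3 for lung, 2 and 5 for pancreas, 2 and 4 for IEL, 4 and 7 for LPL, 0 and 4 for Peyer's patch, 0 and 3 for lymph node against spleen, 0 and 1 for blood against spleen, 0 and 0 for Tconv, and 0 and 2 for the difference of differences, whose dispersion trend was held at that of the full fit. For Tconv alone the replicate block, added after seeing the data, called 0 of the 10 and 11 of all genes, with 4 and 1850 at an unadjusted p below 0.05. Over all genes, the replicate block gave 1597 calls for tissue against lymphoid Treg, against 3910 without it, and 968 for kidney, against 2942. The count over all genes moved as well with single libraries left out, between 12 and 2327 for lymph node against spleen, 52 and 437 for liver, and 351 and 1212 for Peyer's patch. Counting limits Hk2, which had 0 counts in 2 Tconv libraries, and every Tconv comparison has 1 library per source.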
